A study of Mus musculus with 2 samples.

Results

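The regions described here are all those on mouse chromosome 6 that were enriched for YFP-tagged H2A.Z in embryonic stem cells. They were taken from 4 deposited lists by chromosome name alone. The chromosome itself was chosen with earlier results of these data known. Chromosome 6 held 26656 of the 421421 entries in the 4 lists. The looser lists (threshold 1e-09) gave 7626 wild-type and 5936 K3R3 regions there, and the stricter lists (1e-12) gave 7403 and 5691. Chromosomes 2, 4 and 5 were set beside it because they are of similar region density and do not show the excess of wild-type regions that chromosome 6 does. They too were chosen with earlier results of these data known, so their contrast with chromosome 6 in region counts in part restates that choice. Chromosome 8, which shows such an excess too, is given for region number, sharing, width and window ratios.

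Both groups were male V6.5 embryonic stem cells by strain label (129SvJae and C57BL/6), and the protocol names KH2 cells as the line that received the transgenes by lentivirus. One group expressed wild-type H2A.Z fused to YFP. The other expressed H2A.Z.K3R3-YFP, in which 3 lysines near the C-terminus are arginines. In both, a CMV promoter under rtTA control was switched on with doxycycline at 1 µg/ml, cells positive for YFP were sorted, and hairpins against the endogenous H2A.Z transcript were present. The immunoprecipitated protein is therefore a transgene product in sorted cells, and whether a line derives from a single clone is not stated. Cells were grown in serum and LIF, without feeder cells in the last passage. There was 1 library per group. All values below compare these libraries and there are no replicates, so p-values are left out. The region lists hold no expression values, so the labelled cell type was not checked against markers.

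The histone variant H2A.Z replaces canonical H2A in nucleosomes at promoters and enhancers. In embryonic stem cells it marks both active promoters and the poised promoters of developmental genes. Lysines of its C-terminal tail can carry a single ubiquitin, which Polycomb repressive complex 1 can attach, and the K3R3 protein cannot be modified at the replaced positions. The comparison asks whether the mutant protein occupies the places that the wild type occupies. Mouse chromosome 6 carries the Hoxa cluster and Nanog among its genes. No region was assigned to a gene, because the regions are in build mm9 and the gene table at hand is of another build. For the same reason no sequence is shown.

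Wild-type regions were more numerous on chromosome 6 and covered more of it than K3R3 regions. Chromosome 6 took 7.64% (95% Wilson interval 7.48 to 7.81) of the looser wild-type list and 5.21% (5.08 to 5.34) of the looser K3R3 list. These intervals, like all those below, reflect counting error alone and take each region as independent. On chromosome 5 the shares of the lists were 6.71% (6.56 to 6.87) and 7.16% (7.02 to 7.32). They lay closer together on chromosome 2, at 7.86% (7.70 to 8.03) and 8.10% (7.94 to 8.26), and on chromosome 4, at 7.05% (6.90 to 7.21) and 7.16% (7.01 to 7.31), with overlapping intervals in both cases. Per megabase, chromosome 6 held 51.0 wild-type and 39.7 K3R3 regions, against 44.1 and 52.2 on chromosomes 2, 4 and 5 together. Ranked among the 19 autosomes by this density, chromosome 6 was the 3rd richest in the wild type and the 13th in K3R3. The wild-type regions of chromosome 6 covered 3.65 Mb and the K3R3 regions 2.67 Mb, a ratio of 1.37. For chromosomes 2, 4 and 5 together the same ratio was 0.883, from 11.3 and 12.8 Mb. Relative to the ratio of region counts on those chromosomes, that of chromosome 6 was 1.52 times as high.

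**Figure D1:**
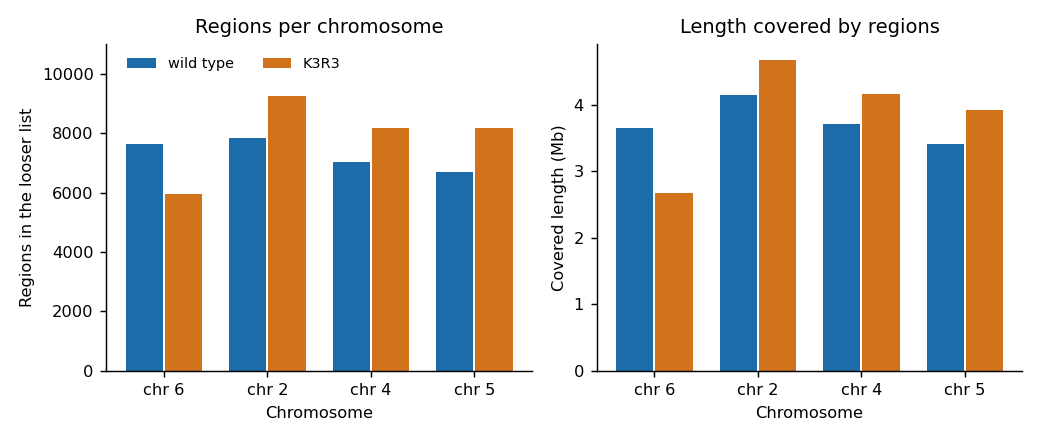
Number of regions in the looser list (left) and length they cover in Mb (right) on chromosomes 6, 2, 4 and 5, with blue bars for wild type and orange bars for K3R3 (1 library each). Wild type leads on chromosome 6 (7626 against 5936 regions), and K3R3 leads on the other 3 chromosomes.

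Most K3R3 regions of chromosome 6 lay at places the wild type also occupied, whereas a large part of the wild-type regions had no K3R3 partner. Regions overlapping the other looser list by 1 bp or more were counted as shared. Of the K3R3 regions, 5270 were shared (88.8%, 87.9 to 89.6) and 666 were not. Of the wild-type regions, 5104 were shared (66.9%, 65.9 to 68.0) and 2522 were not. Over all chromosomes, 18.4% of wild-type and 28.1% of K3R3 regions had no partner. Across chromosomes 2, 4 and 5 the order of the libraries was the reverse of that on chromosome 6, with 83.7% (83.2 to 84.2) of wild-type and 70.5% (69.9 to 71.0) of K3R3 regions shared. Among the 17 autosomes other than 6 and 8, the shared part of the wild-type regions lay between 83.2% on chromosome 15 and 85.9% on chromosome 18, and that of K3R3 between 66.0% on chromosome 13 and 73.1% on chromosome 11. Chromosome 6 lay outside both ranges. It was not alone in this. Chromosome 8, which is kept out of those 17, also had more wild-type than K3R3 regions (7819 and 6288), with 68.5% (67.5 to 69.5) of its wild-type and 89.0% (88.2 to 89.8) of its K3R3 regions shared, and a mean log2 width ratio in shared clusters of 0.30. These differences in number, sharing and width are thus not particular to chromosome 6. Split regions, stricter regions of a single library and the counterparts of broad regions were not computed for chromosome 8 alone. Whether those traits are particular to chromosome 6 was therefore not tested.

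The total agreement of the lists was nevertheless much the same as elsewhere. The length covered by both libraries, divided by the length covered by either, was 0.632 on chromosome 6. The 17 other autosomes ranged from 0.627 on chromosome 12 to 0.667 on chromosome 11. What differed was which library held the surplus. Of the bases enriched in K3R3 on chromosome 6, 91.7% were also enriched in the wild type, and of those enriched in the wild type, 67.0% were also enriched in K3R3. The comparison chromosomes gave 73.6% and 83.4% for these.

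Regions without a partner were narrow, and sharing rose with width in both libraries. Below 100 bp, 21.7% (18.6 to 25.2) of 607 wild-type and 58.2% (53.6 to 62.6) of 459 K3R3 regions on chromosome 6 were shared. From 200 to under 400 bp the shares were 68.4% (66.6 to 70.1) and 91.4% (90.1 to 92.5). From 800 to under 2000 bp they were 90.1% (88.3 to 91.7) and 99.2% (98.3 to 99.6). Among regions of at least 2000 bp, 151 of 155 wild-type (97.4%, 93.6 to 99.0) and all 84 K3R3 regions (Wilson lower bound 95.6%) had a partner. By the same interval, up to 4.37% of such K3R3 regions could lack one.

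Set against chromosomes 2, 4 and 5, the wild-type curve of chromosome 6 lay close to the K3R3 curve of those chromosomes. There, 23.1% of K3R3 regions below 100 bp, 41.7% of those from 100 to under 200 bp, 69.9% from 200 to under 400 bp and 84.4% from 400 to under 800 bp were shared. On chromosome 6 the wild-type values in the same classes were 21.7%, 41.5%, 68.4% and 80.7%. Only among regions of at least 2000 bp, where nearly all were shared, did the chromosomes come together. For the wild type, chromosome 6 gave 90.1% from 800 to under 2000 bp where chromosomes 2, 4 and 5 gave 93.9% (93.1 to 94.6), and from 2000 bp up the values were 97.4% and 97.5% (95.5 to 98.7). For K3R3 the values from 800 to under 2000 bp were 99.2% and 93.3% (92.5 to 94.0). From 2000 bp up they were 100% and 98.1% (96.4 to 99.1). The exchange of roles was not exact, since K3R3 regions on chromosome 6 were shared more often than wild-type regions on chromosomes 2, 4 and 5 in each class below 2000 bp. From 100 to under 200 bp, for example, the shares were 77.5% (74.9 to 79.9) and 71.8% (70.2 to 73.3). Weighted as in the wild-type list of chromosome 6, the wild-type regions of chromosomes 2, 4 and 5 would have been shared to 82.9%, against the 66.9% measured. For K3R3 the weighted value was 68.2%, against 88.8%.

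**Figure D2:**
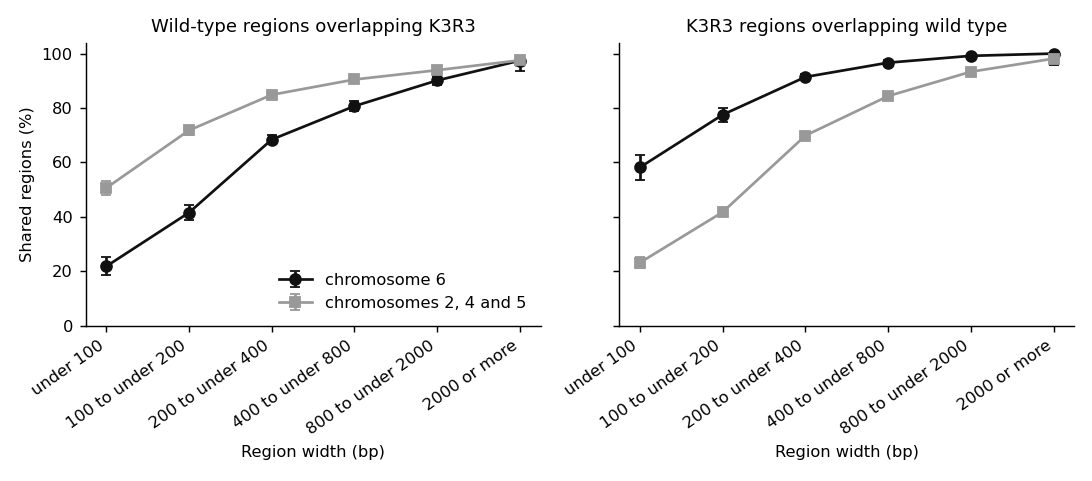
Share of looser regions that overlap the other library, in percent, by region width in bp, for wild-type regions (left) and K3R3 regions (right). Black circles are chromosome 6, grey squares are chromosomes 2, 4 and 5 together, and bars are 95% Wilson intervals. Below 100 bp the wild-type share is 21.7% on chromosome 6 and 50.6% on the others, and the K3R3 share is 58.2% and 23.1%.

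The surplus of wild-type regions was present in every width class and largest among broad regions. On chromosome 6 the ratio of wild-type to K3R3 counts ran from 1.19 (100 to under 200 bp) to 1.36 (800 to under 2000 bp), and reached 1.85 among regions of at least 2000 bp. For chromosomes 2, 4 and 5 together it lay between 0.768 (200 to under 400 bp) and 0.940 (at least 2000 bp). Singly, the ratio among regions of at least 2000 bp was 0.832, 0.993 and 1.03 on these chromosomes. That class is small, with 155 wild-type and 84 K3R3 regions on chromosome 6. The median region of chromosome 6 was 300 bp wide in either library. The middle part of the wild-type widths, from the first to the last quartile, ran from 200 to 600 bp and that of K3R3 from 175 to 575 bp.

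Where both proteins were found on chromosome 6, the wild-type enrichment was usually the wider. Overlapping regions of the libraries formed 5076 shared clusters, and in each the summed wild-type width was divided by the summed K3R3 width. The wild type was wider in 66.6% (65.3 to 67.9) of clusters, K3R3 in 20.1% (19.0 to 21.2), and 13.3% were of equal width. The mean log2 ratio was 0.26 and the median 0.14 (quartiles 0.00 and 0.41). On chromosomes 2, 4 and 5, over 17673 clusters, the wild type was wider in 32.3% (31.7 to 33.0) and K3R3 in 54.7% (54.0 to 55.4), with a mean log2 ratio of -0.16.

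Large differences in width were tilted the same way. On chromosome 6, 503 clusters (9.91%, 9.12 to 10.8) were at least 2-fold wider in the wild type, and 103 (2.03%, 1.68 to 2.45) were at least 2-fold wider in K3R3. Over all chromosomes these shares were 4.38% and 7.45%. The comparison chromosomes gave 3.33% and 8.60%.

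In bp, the extra wild-type width grew with the extent of the cluster. In clusters spanning 200 to under 400 bp the wild type was a mean of 32.5 bp wider, in those of 800 to under 2000 bp 168 bp, and in the 161 clusters of at least 2000 bp 414 bp. On chromosomes 2, 4 and 5 the mean differences in these classes were -30.9, -36.8 and -67.2 bp, that is, K3R3 was the wider. Relative to width, chromosome 6 changed less, with mean log2 ratios of 0.25, 0.28 and 0.35 in these classes. On chromosomes 2, 4 and 5 the mean log2 ratios were -0.24, -0.08 and -0.05, so there the relative difference shrank as clusters became wider. Below 200 bp the difference on chromosome 6 was small, with a mean of 10.6 bp and a median of 0 bp.

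The extra wild-type width was nearly the same at both ends. In the 4869 clusters with a single region of each library, the wild-type region reached a mean of 35.5 bp beyond the K3R3 region at its lower coordinate and 36.2 bp at its upper one. The K3R3 region lay within the wild-type region in 2969 of these clusters (61.0%, 59.6 to 62.3), and the reverse held in 859 (17.6%, 16.6 to 18.7). The regions had the same ends in 416 (8.54%), and in 625 (12.8%) each library reached further on one side. The median distance between midpoints was 12.5 bp, and in 91.7% of these clusters it was at most 100 bp. In chromosomes 2, 4 and 5 the mean reach was -15.5 and -15.6 bp, so there the K3R3 region extended further, again by nearly the same length at both ends.

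**Figure D3:**
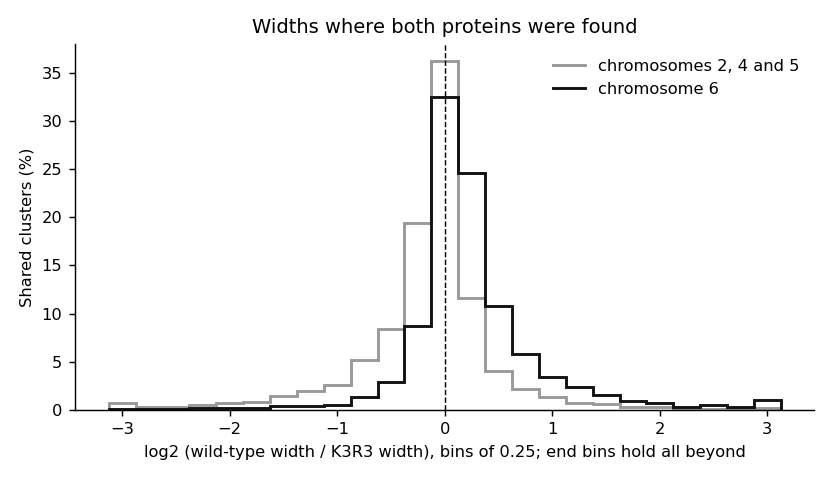
Distribution of log2 width ratios, wild type over K3R3, among shared clusters, as a percentage of clusters per bin of 0.25, for chromosome 6 (black, 5076 clusters) and chromosomes 2, 4 and 5 together (grey, 17673 clusters). The black curve is shifted to the right of 0 (mean 0.26) and the grey curve to the left (mean -0.16).

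The most extreme single-region clusters, among those with at least 400 bp in the wider region, were broad wild-type regions over a sliver of K3R3. A wild-type region of 1325 bp (115941201 to 115942525) met a K3R3 region of 25 bp, and one of 975 bp (119338076 to 119339050) also met 25 bp. One of 2150 bp (115666651 to 115668800) met 100 bp. In the stricter K3R3 list none of these 3 places held a region, while the stricter wild-type list covered 925, 975 and 1825 bp of them. In the opposite direction, the largest difference was a K3R3 region of 925 bp (55111676 to 55112600) over a wild-type region of 50 bp. The next was a K3R3 region of 575 bp (136664576 to 136665150) over 100 bp. Over these wild-type regions of 50 and 100 bp, the stricter K3R3 list covered 50 and 0 bp and the stricter wild-type list none. How much of the wider K3R3 regions remained at the stricter threshold was not measured.

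Single wild-type regions were split into several K3R3 regions more often than the reverse on chromosome 6. This occurred in 179 clusters (3.53%, 3.05 to 4.07), and single K3R3 regions were split into several wild-type regions in 25 (0.493%, 0.334 to 0.726). The shares over all chromosomes were 2.18% and 1.52%. The counts on chromosomes 2, 4 and 5 were nearly balanced, with 320 (1.81%) and 355 (2.01%). Splits were not counted for chromosome 8 alone. Of the 179 split wild-type regions, 167 met 2 K3R3 regions and 12 met 3. They had a median width of 1375 bp. The gaps between the pieces had a median of 275 bp and ran from 225 bp, the smallest gap in any of these lists, to 975 bp.

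The 3 widest wild-type regions that were split into 3 pieces differed in how much of them K3R3 covered. The widest, of 3875 bp (126592076 to 126595950), was covered to 86.5% by pieces separated by 250 bp each, and was itself 2 regions in the stricter wild-type list. The second, of 3775 bp (30123001 to 30126775), was covered to only 37.7% by pieces of 300 to 575 bp, with gaps of 450 to 600 bp. It was a single region in the stricter wild-type list as well, and 3 regions in the stricter K3R3 list. The third, of 3000 bp (84532801 to 84535800), was covered to 75.8%, and was 1 region in the stricter wild-type list and 3 in the stricter K3R3 list. The widest K3R3 regions that were split in the wild type, of 3900 bp (119277826 to 119281725), 3425 bp (87680326 to 87683750) and 2950 bp (84177176 to 84180125), fell into 2 pieces each and were covered to 91.0%, 92.0% and 87.3%. The first and second of these were themselves 2 regions in the stricter K3R3 list, and the last was 1.

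Broad wild-type regions on chromosome 6 often had a narrower or broken counterpart. Of the 155 wild-type regions of at least 2000 bp, 68 (43.9%, 36.3 to 51.7) met a single K3R3 region that was also at least 2000 bp wide. A further 29 met a single narrower K3R3 region, 54 (34.8%, 27.8 to 42.6) met several, and 4 met none. On chromosomes 2, 4 and 5, 65.8% (61.0 to 70.2) of 406 broad wild-type regions met a single broad K3R3 region and 19.0% (15.4 to 23.1) met several. Of the 84 broad K3R3 regions on chromosome 6, 72 (85.7%, 76.7 to 91.6) met a single broad wild-type region. On chromosomes 2, 4 and 5 this held for 62.0% (57.4 to 66.5) of 432 broad K3R3 regions.

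The widest region of chromosome 6 was nevertheless the same in both libraries. It spanned 5100 bp in the wild type (115953526 to 115958625) and 5050 bp in K3R3 (115953551 to 115958600), and K3R3 covered 99.0% of the wild-type region. The other 4 of the 5 widest wild-type regions were less completely covered. They were regions of 4975 bp (115906526 to 115911500), 4125 bp (100162551 to 100166675), 3875 bp (126592076 to 126595950) and 3850 bp (115916451 to 115920300), covered to 79.4%, 89.1%, 86.5% and 73.4% by 2 or 3 K3R3 regions each. Of the 5 widest K3R3 regions, all were covered to at least 91.0% by the wild type. Those of 3500 bp (53767726 to 53771225) and 3350 bp (83018351 to 83021700) lay wholly within wild-type regions.

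Of the 5 widest wild-type regions, 3 lay within a stretch of 52.1 kb (115906526 to 115958625). This stretch is bounded by wide wild-type regions and was singled out after its values were seen. The greater wild-type width and coverage given for it thus in part restate how it was picked. In the looser lists it held 21 regions of each library, which covered 35.3 kb (67.7% of the stretch) in the wild type and 25.3 kb (48.5%) in K3R3. Regions of at least 2000 bp numbered 9 and 5. All 21 K3R3 regions and 18 of the 21 wild-type regions were shared. In the 18 shared clusters the wild type was wider in 17 and equal in 1. The stricter lists covered 33.4 and 23.7 kb.

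**Figure D4:**
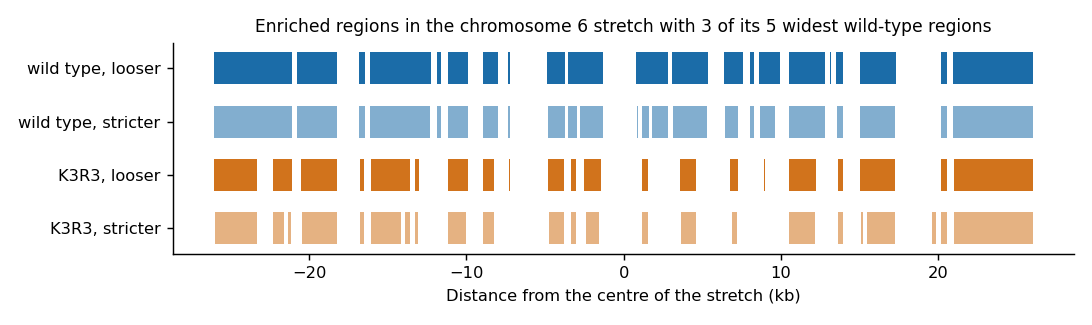
Map of the stretch of 52.1 kb on chromosome 6 that holds 3 of its 5 widest wild-type regions, with distance from its centre in kb on the horizontal axis. Bars are enriched regions in the looser (dark) and stricter (pale) lists of wild type (blue) and K3R3 (orange). The domain at the right end is alike in all lists, and over the stretch as a whole the wild-type bars cover more (67.7% against 48.5% in the looser lists). A stricter K3R3 bar at 19.625 to 19.85 kb meets no wild-type bar. The stretch was picked for its wide wild-type regions, so this difference in part restates the choice.

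The surplus of wild-type regions ran along the chromosome. Regions were counted by midpoint in 30 windows of 5 Mb, of which 29 had at least 30 K3R3 regions and were compared. The number of wild-type regions divided by that of K3R3 regions had a median of 1.30 and lay between 1.17 and 1.54. In 95 such windows of chromosomes 2, 4 and 5 it had a median of 0.826 and lay between 0.591 and 1.00. Across the 423 such windows of all autosomes other than 6 and 8 the highest was 1.12, on chromosome 12, while the 25 windows of chromosome 8 had a median of 1.26 and lay between 0.972 and 1.41. With windows shifted by 2.5 Mb, 1 of 30 windows on chromosome 6 turned, from 102.5 to 107.5 Mb, with 32 wild-type and 35 K3R3 regions (0.914). Sharing turned there too, with 75% (57.9 to 86.7) of wild-type and 68.6% (52.0 to 81.4) of K3R3 regions shared, and 4 wild-type-only against 8 K3R3-only regions (stricter regions without a looser partner). The covered length did not turn, with 11.5 kb in the wild type and 10.5 kb in K3R3.

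The highest ratios were found where regions were few. From 65 to 70 Mb there were 125 wild-type and 81 K3R3 regions (1.54), from 20 to 25 Mb 110 and 76 (1.45), and from 40 to 45 Mb 85 and 59 (1.44). The lowest ratio was in the window richest in regions, from 85 to 90 Mb, with 652 and 559 (1.17). It was followed by 60 to 65 Mb, with 51 and 43 (1.19), and 115 to 120 Mb, with 465 and 392 (1.19). Across the 29 windows the ratio and the number of K3R3 regions had a Spearman rho of -0.17, given as a description, since the K3R3 count enters both measures.

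**Figure D5:**
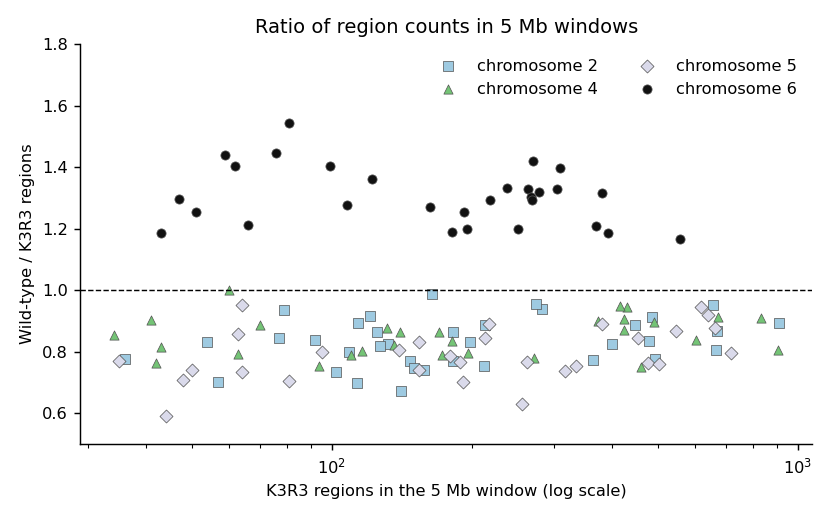
Wild-type regions divided by K3R3 regions, per 5 Mb window holding 30 K3R3 regions or more, against the number of K3R3 regions in the window (log scale). Each point is a window, black circles are the 29 windows of chromosome 6, and pale symbols are the 95 windows of chromosomes 2, 4 and 5. All black points lie between 1.17 and 1.54, and no pale point lies above 1.00, the dashed line.

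Sharing and width followed the same course in the windows. The shared part of wild-type regions lay between 55.2% (65 to 70 Mb) and 74.4% (45 to 50 Mb), and in all 29 windows it was below the lowest value of the 95 comparison windows, 75%. This did not hold against all 423 windows of the autosomes other than 6 and 8, whose lowest value was 70.7% (chromosome 11, 25 to 30 Mb), exceeded by 6 of the 29. With shifted windows the highest value on chromosome 6 was 81.0% (57.5 to 62.5 Mb). The shared part of K3R3 regions lay between 83.9% (95 to 100 Mb) and 96.6% (40 to 45 Mb), and in 21 of 29 windows it was above the highest comparison value, 86.7%. The mean log2 width ratio was above 0 in all 30 windows and lay between 0.19 (140 to 145 Mb) and 0.55 (105 to 110 Mb, 56 clusters) in those compared. It was above 0 in 6 of the 95 comparison windows, where the highest value was 0.11. Among the 423 windows of the autosomes other than 6 and 8 it reached 0.46, in a window of chromosome 12. Wild-type regions were split more often than K3R3 regions in 26 of 30 windows, and 16 windows held no split K3R3 region.

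Wild-type-only regions outnumbered K3R3-only regions on chromosome 6. These are stricter regions of either library that overlap no looser region of the other. There were 2336 wild-type-only regions, 31.6% (30.5 to 32.6) of the stricter wild-type list of this chromosome, against 17.8% over all chromosomes. K3R3-only regions numbered 559, or 9.82% (9.08 to 10.6), against 25.7% over all chromosomes. Some overlapped no looser region of their own library either: 352 wild-type-only (15.1%, 13.7 to 16.6) and 166 K3R3-only regions (29.7%, 26.1 to 33.6). On chromosomes 2, 4 and 5 these shares were 22.9% and 17.2%. In all 30 unshifted windows the wild-type-only regions were the more numerous. Most were narrow: the median wild-type-only region had 200 bp (quartiles 100 and 300 bp) and the median K3R3-only region 175 bp (75 and 250 bp).

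Wild-type-only regions of chromosome 6 tended to lie further from the other library than K3R3-only regions did. Their median distance to the nearest looser region of the other library was 2962 bp, against 1725 bp for K3R3-only regions. Of the wild-type-only regions, 27.0% (25.2 to 28.8) lay within 1000 bp of a K3R3 region and 23.2% (21.5 to 25) lay more than 10000 bp from any. For K3R3-only regions these shares were 33.8% (30.0 to 37.8) and 15.2% (12.5 to 18.4). Wild-type regions were also denser on this chromosome (51.0 against 39.7 per megabase), and the part of that density in the distances was not tested. On chromosomes 2, 4 and 5, where K3R3 regions were the denser, the order was the reverse: 33.9% of wild-type-only and 27.2% of K3R3-only regions lay within 1000 bp, and 15.0% and 18.2% beyond 10000 bp. Some of these regions did appear in the stricter list of the other library, 228 (9.76%, 8.62 to 11.0) of the wild-type-only and 103 (18.4%, 15.4 to 21.9) of the K3R3-only ones. On chromosomes 2, 4 and 5 this order was reversed as well, with 20.8% and 10.3%.

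Wide regions of a single library were almost all wild type on this chromosome. Regions of at least 1000 bp numbered 56 of the 2336 wild-type-only and 2 of the 559 K3R3-only ones. On chromosomes 2, 4 and 5 together they numbered 122 of 3401 and 126 of 6865. Singly, those chromosomes held 45, 45 and 32 wide wild-type-only regions, and 47, 45 and 34 wide K3R3-only ones. The low K3R3 count thus set chromosome 6 apart more than the wild-type count did. Of the 56, 41 (73.2%, 60.4 to 83.0) were absent from the stricter K3R3 list as well, and 28 had no region of either K3R3 list within 1000 bp. That share is near the general one, which was 61.5% (52.6 to 69.6) on chromosomes 2, 4 and 5 and 66.3% (61.6 to 70.7) on the autosomes other than 6 and 8.

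Of the 10 widest wild-type-only regions, 6 were free of K3R3 regions in both the looser and the stricter list. The widest of these had 2525 bp (125302976 to 125305500), with the nearest looser K3R3 region 2450 bp away. Next came regions of 2125 bp (122612051 to 122614175), 1850 bp (124758601 to 124760450), 1775 bp (91633576 to 91635350), 1725 bp (124999726 to 125001450) and 1675 bp (125038576 to 125040250). Their distances to the nearest looser K3R3 region were 2975, 15850, 4050, 9275 and 1425 bp. All 6 were also in the looser wild-type list.

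The other 4 were present in part in the stricter K3R3 list although absent from its looser list. The widest wild-type-only region of the chromosome, of 2675 bp (83139026 to 83141700), lay 16000 bp from any looser K3R3 region but was covered to 53.3% by a stricter K3R3 region of 1425 bp. Those of 1650 bp (82866976 to 82868625), 2175 bp (72498676 to 72500850) and 2600 bp (88058351 to 88060950) were covered to 56.1%, 42.5% and 6.73%. The region of 2175 bp was itself missing from the looser wild-type list. For these 4, absence from K3R3 thus holds in the looser list only.

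K3R3-only regions of chromosome 6 were short. The widest had 1250 bp (142766276 to 142767525). It was free of wild-type regions in both lists, and had a looser wild-type region 1175 bp away. The second, of 1000 bp (127515351 to 127516350), was covered to 32.5% by the stricter wild-type list. The other 8 of the 10 widest had 700 to 875 bp. Of the 10, 7 were free of wild-type regions in both lists. Examples are regions of 875 bp (88692151 to 88693025), which lay 400 bp from a wild-type region of the same width and was missing from the looser K3R3 list itself, and 850 bp (86231626 to 86232475), with the nearest looser wild-type region 3650 bp away. Another of the 10, of 700 bp (89235751 to 89236450), was also missing from the looser K3R3 list. Regions of 750 bp at 71147601 to 71148350 and 89194976 to 89195725 overlapped stricter wild-type regions over 73.3% and 53.3% of their length.

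Passage from the looser to the stricter threshold took away similar parts of both lists. Of the looser regions on chromosome 6, 89.6% in the wild type (88.9 to 90.3) and 87.4% in K3R3 (86.5 to 88.2) overlapped a stricter region of the same library. On chromosomes 2, 4 and 5 the values were 89.8% (89.4 to 90.2) and 88.7% (88.3 to 89.1). The median region that dropped out was 75 bp wide in either library. In the other direction, 5.75% (5.25 to 6.31) of stricter wild-type and 6.62% (6.01 to 7.30) of stricter K3R3 regions on chromosome 6 overlapped no looser region of their own library. The lists hold no read counts, so the part that sequencing depth plays in any of these differences was not tested.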

How the data were processed

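ChIP-seq regions of 2 libraries, wild-type and K3R3 H2A.Z-YFP, were analysed. Each deposited list gives a chromosome, start and end per region (coordinates in bp on a grid of 25 bp), with no height, score or read count. The submitters' processing notes list Bowtie 0.12.3, bedtools and build mm9. Which program found the regions, and against which control, is not given in the sources used here. The lists are named 1e-09 and 1e-12 per the file headers, and each comes from a single library.

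The looser lists were the main data. Overlap, clusters, width classes, 5 Mb windows and library-specific regions were computed as described beside each result, with Python 3.11.15, numpy 2.4.6, scipy 1.17.1 and matplotlib 3.10.9. Intervals are 95% Wilson intervals. Read depth is unknown. Interval functions were checked against bedtools 2.31.1 and tested on simulated data. Coordinates are 1-based. With 1 library per group no test was run.

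Named regions followed a fixed rule: the 5 widest of each library, the 10 widest library-specific regions of each, the 3 most divided clusters in each direction, the 3 highest and lowest windows, and the 5 clusters with the most unequal widths in each direction, of which the leading ones are printed. The chromosomes and measures were chosen with earlier results of these data known. The 52.1 kb stretch, broad-region counterparts, width weighting, chromosome 8 and 1 Mb windows were added after values were seen.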

Additional observations from a re-analysis of the deposited data

How the results depend on the processing

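No paired analysis was possible because there were no replicates to pair. In the alternatives run, the excess of wild-type regions and covered length on chromosome 6, the higher shared part of K3R3 regions, the greater wild-type width and the more frequent splitting of wild-type regions kept their direction, except for 1 window. With windows shifted by 2.5 Mb, the lowest window ratio was 0.914, below 1 (second lowest 1.12, highest 1.48). For window ratios, 10 Mb windows gave 1.23 to 1.42, the stricter lists a lowest value of 1.09, and covered length (an alternative added after seeing the data) 1.24 to 1.67. Values for wild type, then K3R3, follow. Stricter lists gave a covered-length ratio of 1.39, 89.8% of K3R3 regions shared, a mean log2 width ratio of 0.32 and, as alternatives added later, a mean reach of 39.5 bp per end against 35.9 bp, and shares of 18.2% (wild type, under 100 bp), 70.2% (200 to under 400 bp), 82.6% (400 to under 800 bp), 92.1% (800 to under 2000 bp) and 82.4% (K3R3, 100 to under 200 bp). Joining regions within 1000 bp gave a count ratio of 1.24, a length ratio of 1.39, 70.5% of wild-type regions shared, a log2 width ratio of 0.36, and 2.21% and 0.329% of clusters with a split wild-type or K3R3 region (3.53% and 0.493% as reported). Regions of at least 200 bp gave a length ratio of 1.38, 68.4% and 91.5% shared, a log2 width ratio of 0.20 and 3.03% of clusters with a split wild-type region. In an alternative added later, 99.2% and 98.7% of such regions overlapped a stricter region. Shares were 61.0% and 87.2% with 50% of the region covered, 58.2% and 74.8% with a reciprocal overlap of 50%, 75.2% and 92.0% at up to 1000 bp, and 69.4% and 90.0% with both lists of the other library. Clusters with a single region of each library gave a log2 width ratio of 0.25. Requiring 1000 bp of distance left 370 K3R3-only regions. Against all autosomes other than 6 and 8 the relative count ratio was 1.55 in place of 1.52. The cause of these shifts was not tested. The region lists do not give depth, so what it limits could not be measured.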

Other observations

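Both proteins were concentrated in the same parts of chromosome 6. Of the 5 windows of 1 Mb with the most covered length, 4 were the same in both libraries. The densest in both was 88 to 89 Mb, with 131 kb covered in the wild type and 106 kb in K3R3. Those from 83 to 84 Mb, 91 to 92 Mb and 115 to 116 Mb followed, with 99.5 and 75.9 kb, 95 and 70.5 kb, and 101 and 73.3 kb. Over the 29 windows of 5 Mb, the covered lengths rose and fell together (Spearman rho 0.994, a description over neighbouring windows of the same libraries). The longest gap between wild-type regions was 1127 kb (79375651 to 80502475), and in K3R3 the corresponding gap ran from 79375576 to 80911775 (1536 kb). The longest K3R3 gap, of 1663 kb, ran from 45331401 to 46994700.

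Of the 10 widest wild-type-only regions, 4 lay between 124758601 and 125305500, a stretch of 547 kb picked after its values were seen. It held 98 wild-type and 72 K3R3 regions in the looser lists, which covered 69.9 and 41.9 kb. Of these, 62 of 98 wild-type and 66 of 72 K3R3 regions were shared, with greater wild-type width in 48 of 62 shared clusters. The shared parts are near those of the whole chromosome, 66.9% and 88.8%. The stretch held 36 wild-type-only and 6 K3R3-only regions, counts that in part restate how it was picked. Whether these neighbouring regions belong to the same regulatory domains was not tested.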
